A study of Equus caballus with 4 samples.

Results

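The potassium channel genes described here were all genes on the array whose symbol begins with KCN, followed by a family letter and a number. They cover the pore-forming and the auxiliary subunits. The rule used the name alone and no measured value. It found 136 probes for 67 genes among the 13349 named genes of the array, and each gene was represented by the probe with the highest mean signal.

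Potassium channels let potassium leave the cell and so pull the membrane potential towards negative values. Voltage-gated channels repolarise the membrane after an action potential, calcium-activated channels open when internal calcium rises, inward rectifiers and two-pore domain channels set the resting potential, and ATP-sensitive channels tie excitability to the energy state of the cell. In muscle precursor cells, hyperpolarisation through the ether-à-go-go channel KCNH1 and the inward rectifier KCNJ2 is known to precede the fusion of myoblasts into myotubes.

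The samples were primary cultures of equine satellite cells, the stem cells of skeletal muscle, taken from the semitendinosus muscle of 6-month-old colts and brought into differentiation. GO-treated cells received 125 nM gamma-oryzanol (GO), a mixture of ferulic acid esters from rice bran oil, for 24 h up to the third day of differentiation. Control cells received the solvent DMSO, at 0.04 µl per ml, in the same medium. According to the methods, cultures of all horses were scored for viability and fusion and the best one was taken on, so that all arrays may come from 1 horse. The labels call the arrays biological replicates but give no horse or culture for each, and the p-values measure the spread between 4 arrays, which may be technical.

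Each of the 4 two-colour arrays held GO-treated RNA in the red dye Cy5 and control RNA in the green dye Cy3. As the dyes were never swapped, an effect of the dye and an effect of GO cannot be told apart in any value below. The control channel was well above background for 63.5% to 68.9% of spots and the GO channel for 57.4% to 67%. Muscle cell markers were clear in both channels, with 11 of 11 measured markers above background on all arrays, as were 7 of 7 fibroblast markers. Of the other cell types, 4 of 5 smooth muscle and pericyte markers, 0 of 5 endothelial, 1 of 6 neuronal or glial (SYP) and 2 of 6 leukocyte markers (CD14 among them) were above background on all arrays, and the pericyte marker RGS5 was on none.

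Most potassium channel genes gave little or no signal in the differentiating muscle cells. A brightest probe was well above background in both channels on all 4 arrays for 14 of 67 genes, namely KCNB2, KCND1 and KCNQ3 of the voltage-gated class, KCNF1, KCNG1 and KCNG4 of the electrically silent class, the calcium-activated KCNN3, the inward rectifier KCNJ11, the two-pore domain channels KCNK1, KCNK2, KCNK6 and KCNK7, and the auxiliary subunits KCNMB1 and KCNMB2. For another 6 genes the control channel was above background on all 4 arrays and the GO channel on fewer. These were the voltage-gated KCNH2, the inward rectifiers KCNJ2, KCNJ10 and KCNJ13, the two-pore domain KCNK5 and the auxiliary KCNE3. A further 19 genes were above background on some arrays, and 28 on none. The number of members above background was 28, 27, 24 and 25 in the control channel of arrays 1 to 4, and 29, 25, 20 and 18 in the GO channel. Arrays 3 and 4, which had the lower overall share of bright spots in the GO channel, thus also had fewer members above background there.

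**Figure D1:**
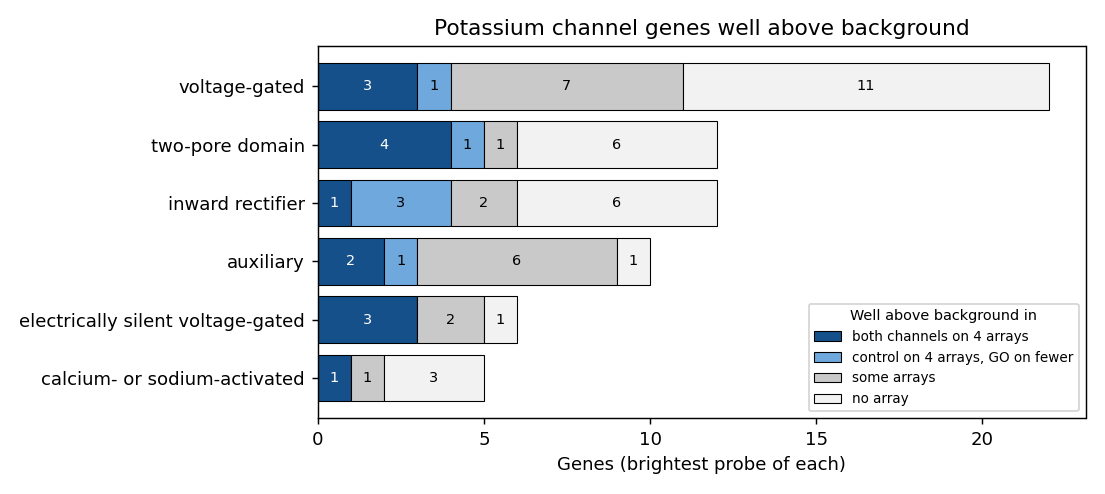
Number of potassium channel genes in each class, split by where the brightest probe was well above background. The x axis counts genes. The voltage-gated class held 22 genes, of which 11 were above background on no array, and the two-pore domain class had 4 of 12 genes above background in both channels of all 4 arrays.

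The classes differed in how many members could be measured. The test took probes above background on all 4 arrays in at least 1 channel, which left 20 of 67 member genes (29.9%), against 9058 of 13349 named genes (67.9%). By class these were 4 of 22 voltage-gated, 3 of 6 electrically silent, 1 of 5 calcium- or sodium-activated, 4 of 12 inward rectifier, 5 of 12 two-pore domain and 3 of 10 auxiliary genes. The members that were measured were also dim, with a median log2 signal of 5.83 against 8.23 over all tested named genes. Their ratios spread more between arrays, with a median SD of 0.2 in log2 ratio against 0.15.

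Among the tested members, 4 passed both thresholds, which were an adjusted p by limma no higher than 0.05 and a change of 1.3-fold or more. KCNMB2, an auxiliary β subunit of the large-conductance calcium-activated (BK) channel, the small-conductance calcium-activated channel KCNN3 and KCNJ11, the pore of the ATP-sensitive channel, were lower in GO-treated cells, and the two-pore domain channel KCNK6 was higher. That is 4 of 20 tested members (20%), against a background of 8.7% of all tested named genes and 8.94% of all tested probes. Of the 20, 3 fell, against 5.37% of all named genes, and 1 rose, against 3.33%. By the adjusted p alone, 6 of 20 passed, against 17.3% of all named genes, and 3 of these were higher in GO-treated cells, against 8.03%. The added pair was KCNF1 and KCNK2. With so few members, these shares are a description and were not tested against each other. In RNA from whole cultures, fewer cells of a type and less RNA per cell cannot be told apart.

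Taken as a list, the members were close to no change. The median log2 ratio of the 20 tested members was -0.058, with 7 above 0 and 13 below it, and 0.00302 over all tested named genes. By array the members' median was -0.050, -0.042, 0.0046 and -0.029, and with median centring in place of lowess the median over arrays was -0.13. A ratio of the same sign on all 4 arrays was found for 8 of 20 members, near the 42.3% of all tested named genes.

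**Figure D2:**
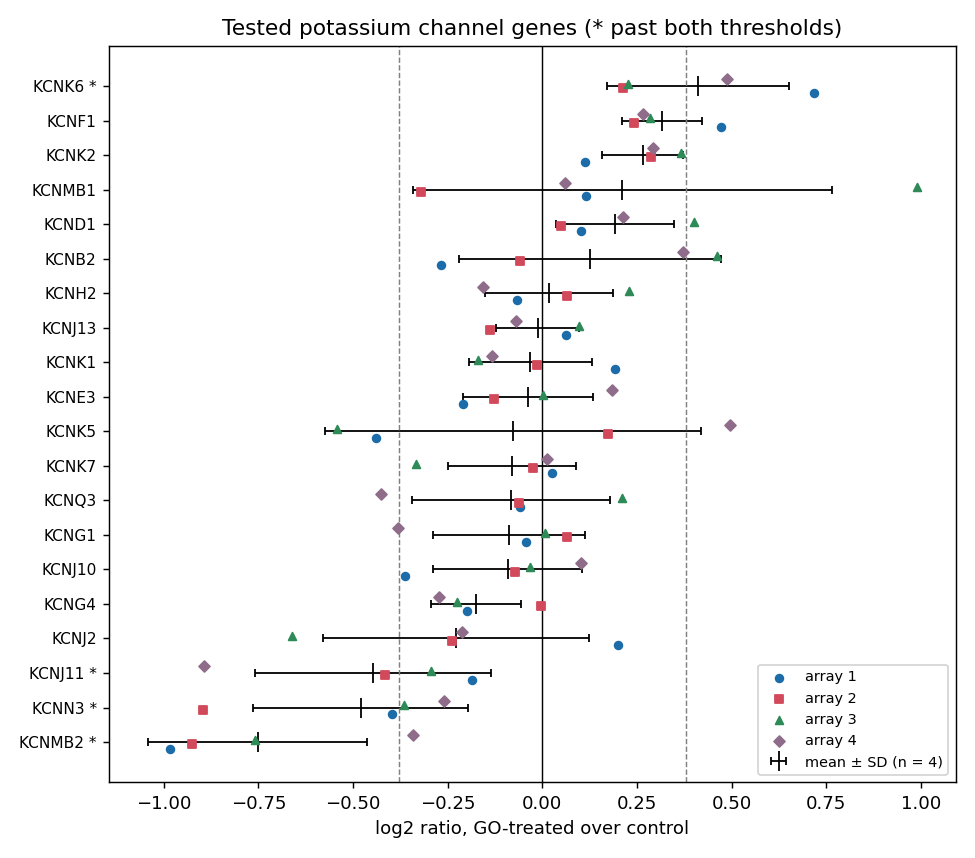
log2 ratio (GO over control) on the x axis for each of the 20 tested potassium channel genes, with 1 symbol per array and the mean ± SD over 4 arrays. Dashed lines mark a fold change of 1.3 and asterisks the 4 genes past both thresholds. KCNMB2 lies lowest at -0.75 and KCNK6 highest at 0.41, and the arrays of most other genes fall on both sides of 0.

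Markers of the muscle cells moved at the same time. Of the 11 muscle markers, 8 fell past both thresholds, against 5.37% of all tested named genes. Among them were the embryonic myosin MYH3 (log2 ratio -0.83), desmin DES (-0.61), myogenin MYOG (-0.40) and the acetylcholine receptor subunit CHRNA1 (-0.46). The summed signal of all 11 was 316000 to 426000 units in the control channel and 204000 to 294000 in the GO channel. The GO channel was the lower on each of the 4 arrays. Of the fibroblast markers, 1 of 7 rose (PDGFRA, 0.87), against 3.33% of all tested named genes. PDGFRA was the dimmest of the 7, at a mean log2 signal of 4.87 in the control and 5.75 in the GO channel. The summed signals of the 7 were 279000 to 443000 units in the control and 289000 to 401000 units in the GO channel. The part of these shifts in the changes of the potassium channel genes was not tested.

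Among the voltage-gated pores, none of 4 tested genes passed the thresholds. KCND1, which carries the fast transient A-type current, had log2 ratios of 0.10, 0.050, 0.40 and 0.21 on arrays 1 to 4 (0.19 ± 0.16, SD, n = 4, limma adjusted p = 0.120). All arrays lay above 0, but 1 of them barely. KCNB2, a delayed rectifier of the Kv2 family, lay below 0 on arrays 1 and 2 and above 0 on arrays 3 and 4, with a mean of 0.13 ± 0.35 (SD, n = 4). KCNH2, the HERG channel of cardiac repolarisation, and KCNQ3, a subunit of the neuronal M-current, had means of 0.018 ± 0.17 and -0.083 ± 0.26 (SD, n = 4). The 95% confidence interval of the log2 ratio ran from -0.17 to 0.20 for KCNH2 and from -0.33 to 0.16 for KCNQ3.

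KCNH1, the ether-à-go-go channel of the fusion pathway, was too dim to be tested. Its brightest probe gave control signals of 24.5, 30.4, 18.4 and 20.4 units and GO signals of 18.7, 24.1, 16.0 and 13.2 units on arrays 1 to 4, above background on 3 arrays in the control channel and on 1 in the GO channel. The GO channel was listed as the dimmer on each array, but it was not above background on 3 of the 4, and no fold is given. The other 4 probes of KCNH1 overlap the first in sequence and were above background on at most 2 arrays in the control channel. They read nearly the same stretch of RNA and are not independent of it.

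KCNC1, a fast delayed rectifier of the Kv3 family, was measured by 5 probes that overlap almost wholly, and only 1 of them gave a signal. The sequences are shown because they differ so little. In 5′ to 3′ direction, with the 51 bases that all 5 probes share in capitals, they are as follows.
KCNC1 probe 1: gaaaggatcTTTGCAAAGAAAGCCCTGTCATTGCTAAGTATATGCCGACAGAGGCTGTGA
KCNC1 probe 2: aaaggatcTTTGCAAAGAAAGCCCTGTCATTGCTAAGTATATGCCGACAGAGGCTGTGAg
KCNC1 probe 3: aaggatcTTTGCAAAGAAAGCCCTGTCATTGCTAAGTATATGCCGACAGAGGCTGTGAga
KCNC1 probe 4: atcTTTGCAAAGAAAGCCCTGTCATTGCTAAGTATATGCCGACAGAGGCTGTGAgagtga
KCNC1 probe 5: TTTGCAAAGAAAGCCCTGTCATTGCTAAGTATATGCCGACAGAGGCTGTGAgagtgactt

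Probe 2 gave GO signals of 19.7, 21.8, 24.8 and 17.0 units and control signals of 3.44, 2.48, 2.76 and 3.40 units. The GO channel was above background on 3 arrays and the control channel on none, where the scanner software had put a surrogate value in place of the signal on all 4. The difference is therefore only a bound, in which the mean GO signal was 1.42-fold the lowest signal well above background. That mean includes the array on which the GO channel was not above background. The unprocessed signals lay close together. On arrays 1 to 4 they were 2.04, 1.70, 1.62 and 1.75 times background in the GO channel. In the control channel they were 1.56, 1.55, 1.57 and 1.72 times background. In the neighbouring probes, which begin 1 base before and 1 base after it, both channels were surrogates on all 4 arrays, as they were in the remaining pair. The signal of KCNC1 thus rests on 1 of 5 probes for the same stretch and was not seen by the other 4. Of the other untested voltage-gated genes, KCNA2, a Shaker-type channel, was above background in the GO channel of 1 array and in no control channel. Its other probes were above background on no array, and no fold is given.

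The electrically silent subunits form no channel of their own but join Kv2 pores such as KCNB2 and change their gating. KCNF1 had the lowest adjusted p of them, with control signals of 116, 147, 117 and 123 units and GO signals of 161, 174, 142 and 148 units. The GO channel was the brighter on each array, although the highest control array and the lowest GO arrays overlap. Its log2 ratio was 0.32 ± 0.11 (SD, n = 4, limma adjusted p = 0.0222), past the threshold for p but a fold change of 1.25, under the 1.3 required. Without array 1 the limma adjusted p of KCNF1 was 0.0407. It was above 0.05 without array 2, 3 or 4, at 0.0742, 0.0745 and 0.0519. KCNG4 lay below 0 on all 4 arrays, at -0.20, -0.0038, -0.23 and -0.27, with a mean of -0.18 ± 0.12 (SD, n = 4, limma adjusted p = 0.113). KCNG1 had a mean of -0.087 ± 0.20 (SD, n = 4).

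Of the calcium-activated pores, KCNN3 could be tested alone. The small-conductance channels open on a rise of calcium and give a slow afterhyperpolarisation, and they are known from immature and denervated muscle. The KCNN3 probe gave control signals of 200, 74.6, 99.7 and 116 units and GO signals of 152, 40.1, 77.4 and 97.2 units. The ranges of the channels overlap, with or without the bright array 1, but the GO channel was the dimmer within each array. The log2 ratios were -0.40, -0.90, -0.37 and -0.26, with a mean of -0.48 ± 0.28 (SD, n = 4, limma adjusted p = 0.0312). Without array 2 the mean was -0.34 and the adjusted p 0.0659, and it was also above 0.05 without array 1 or array 3. KCNN1, KCNN2 and the sodium-activated KCNT2 were above background on no array, and KCNN4, the intermediate-conductance channel of proliferating cells, on 1 array in the control and 2 in the GO channel. The probe of KCNN3 has no assigned chromosome in the EquCab1 build (chrUn:83367729-83367788, minus strand).

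Of the inward rectifiers, KCNJ11 fell and none of the other 3 tested genes passed. KCNJ11 is the pore of the ATP-sensitive channel, which in muscle opens when ATP is low and limits calcium entry during fatigue. Its probe lies at chr7:73473153-73473212 (EquCab1, minus strand) and is shown as the target that was measured.
KCNJ11 probe: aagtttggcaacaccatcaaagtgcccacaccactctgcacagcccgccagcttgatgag

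KCNJ11 gave control signals of 59.8, 83.3, 55.1 and 61.3 units and GO signals of 52.6, 62.5, 44.9 and 33.0 units on arrays 1 to 4. The GO channel was the dimmer on each array, by little on array 1 and by most on array 4, and the ranges of the channels overlap. The log2 ratio was -0.45 ± 0.31 (SD, n = 4, limma adjusted p = 0.0456). Leaving out any 1 of the 4 arrays took the adjusted p above 0.05, to between 0.0543 and 0.126, and without array 4 the log2 ratio was -0.30. KCNJ2, the Kir2.1 channel of the fusion pathway and of the muscle resting potential, had log2 ratios of 0.20, -0.24, -0.66 and -0.21. Array 1 went against the other 3, and the mean of -0.23 ± 0.35 (SD, n = 4, limma adjusted p = 0.256) was within the spread between arrays, with a 95% confidence interval from -0.54 to 0.084. KCNJ10 and KCNJ13, channels of glia and of transporting epithelia, had means of -0.091 ± 0.20 and -0.013 ± 0.11 (SD, n = 4). KCNJ8, the pore of vascular ATP-sensitive channels, was above background on no array, and KCNJ12, the muscle channel Kir2.2, on 2 arrays in the control channel and on none in the GO channel.

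Of the two-pore domain channels, which pass the leak current at rest, KCNK6 rose, and KCNK2 was past the threshold for p but not for the fold change. The KCNK6 probe lies at chr10:9420078-9420137 (EquCab1, plus strand). It is shown because it reads the pore itself, and the capitals mark the bases that encode the core of the selectivity filter, the narrow part that admits potassium.
KCNK6 probe: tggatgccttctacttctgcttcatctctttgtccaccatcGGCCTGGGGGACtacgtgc

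The probe of KCNK6 gave control signals of 28.3, 56.6, 50.2 and 42.9 units and GO signals of 46.5, 65.6, 58.7 and 60.2 units. The GO channel was the brighter on each array, most on array 1, where the control channel was at its dimmest. The log2 ratio was 0.41 ± 0.24 (SD, n = 4, limma adjusted p = 0.0338), a fold change of 1.33 that lies close to the threshold of 1.3. Leaving out any 1 array took the adjusted p to between 0.0603 and 0.0837, and another background correction with loess took the log2 ratio to 0.12.

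KCNK2, the mechanosensitive and lipid-sensitive TREK-1 channel, had control signals of 59.3, 36.2, 68.8 and 55.9 units and GO signals of 64.1, 44.2, 88.7 and 68.5 units. The GO channel was the brighter on each array, and the channels overlap. Its log2 ratio was 0.26 ± 0.11 (SD, n = 4, limma adjusted p = 0.0367) with a fold change of 1.20, under the 1.3 required. Without array 1 the limma adjusted p of KCNK2 was 0.0311. It was above 0.05 without array 2, 3 or 4, at 0.134, 0.137 and 0.101. KCNK1, KCNK5 and KCNK7 had means of -0.031 ± 0.16, -0.078 ± 0.50 and -0.080 ± 0.17 (SD, n = 4). KCNK5, a pH-sensitive channel, was the most variable of them, at -0.44, 0.17, -0.54 and 0.49, with 2 arrays on either side of 0. A pair of probes without a gene name in the files, on chromosome 15, is assigned to the two-pore channel KCNK12 in the study's supplementary list and was not counted among the members. These probes share all but 2 bases of their position and had log2 ratios of -0.74 ± 0.045 and -0.71 ± 0.047 (SD, n = 4, limma adjusted p = 0.00166 and 0.00190). They fell on all 4 arrays with less spread between arrays than any tested member.

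The largest fall of any tested member was in an auxiliary subunit, KCNMB2. The β subunits of the BK channel alter its calcium sensitivity, and the subunit encoded by KCNMB2 also inactivates it. KCNMB2 was read by a pair of probes on chromosome 19 that do not overlap, at chr19:14163320-14163379 and chr19:14164386-14164445 (EquCab1, plus strand). The probe with the higher mean signal gave control signals of 251, 162, 235 and 165 units and GO signals of 127, 85.2, 139 and 130 units. The highest GO value lay below the lowest control value, although array 4 showed a smaller difference than the other 3. The log2 ratios were -0.98, -0.93, -0.76 and -0.34, with a mean of -0.75 ± 0.29 (SD, n = 4, limma adjusted p = 0.00898).

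The other KCNMB2 probe gave control signals of 266, 212, 242 and 195 units and GO signals of 103, 92.4, 100 and 73.9 units. All 4 arrays showed nearly the same difference, and the channels did not overlap. Its log2 ratio was -1.31 ± 0.092 (SD, n = 4, limma adjusted p = 0.000563), so that both probes of KCNMB2 passed both thresholds, by different amounts. Leaving out 1 array at a time kept the first probe between -0.89 and -0.68, past both thresholds each time.

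**Figure D3:**
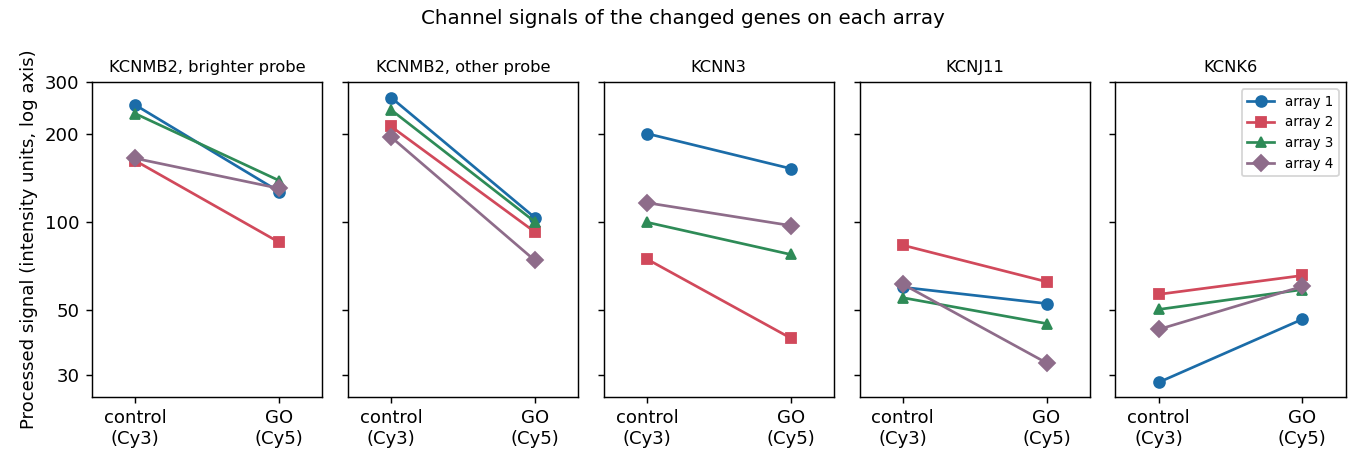
Processed signal of the control channel and the GO channel on each of the 4 arrays, on a log axis, for both probes of KCNMB2 and for KCNN3, KCNJ11 and KCNK6. Lines join the channels of 1 array. All lines fall for the first 4 probes and rise for KCNK6, where array 1 climbs from 28.3 to 46.5 units.

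KCNMB1, the BK β subunit of smooth muscle, had log2 ratios of 0.12, -0.32, 0.99 and 0.061. It was the most variable of all tested members, with array 3 far above and array 2 below 0, and its mean of 0.21 ± 0.55 (SD, n = 4, limma adjusted p = 0.478) was within that spread. KCNE3, a small single-span subunit that partners several voltage-gated pores, had a mean of -0.038 ± 0.17 (SD, n = 4). The pore of the BK channel, KCNMA1, had no probe under its symbol and was not analysed here. Of the untested auxiliary genes, KCNMB4 was above background on 2 control channels and no GO channel, and KCNE4, an inhibitory subunit, on 2 control channels and 1 GO channel.

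Several probes of 1 gene did not always give the same ratio. Of the 67 genes, 41 had 1 probe and 26 had several, and in 15 genes the probes shared at least 30 bases with each other. KCNB2 had 5 tested probes, whose mean log2 ratios ran from -0.29 to 0.15, and KCNE3 had 2, at -0.038 and 0.13. The untested probes of KCNE3 lay above 0 on each array, but none was above background on more than 2 arrays in either channel. In no gene did tested probes pass the thresholds in opposite directions. Of the 136 probes, 9 spanned more than 60 bases of the genome and so crossed an exon junction.

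**Figure D4:**
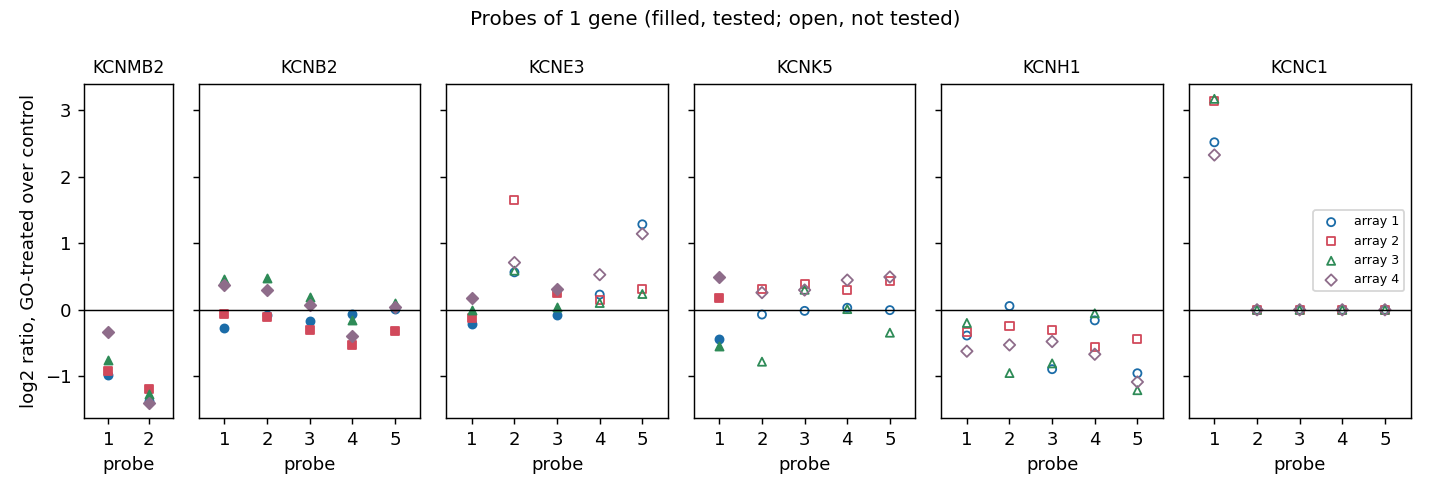
log2 ratio (GO over control) on each array for the probes of 6 genes, with the brightest probe first. Filled symbols were tested and open symbols were not. Both KCNMB2 probes lie below 0 and those of KCNB2 scatter around it. The tested KCNE3 probes lie on both sides of 0, and the untested ones above 0 on each array. In KCNC1 only the first probe departs from 0, and both channels of its other probes were surrogates.

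Of the partner proteins of these channels, which are named without the KCN prefix, several fell. Of 21 listed genes 16 were on the array and 8 were tested. Of these 8, 4 fell and none rose, against the background of 8.7% for all named genes in either direction, while with median centring in place of lowess 3 fell and 1 rose. Their median log2 ratio was -0.37. NEDD4L, a ubiquitin ligase that removes KCNQ and other channels from the membrane, had log2 ratios of -0.76, -1.06, -0.75 and -0.59 (-0.79 ± 0.20, SD, n = 4, limma adjusted p = 0.00434).

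LRRC26, an auxiliary γ subunit of the BK channel, had a log2 ratio of -0.38 ± 0.11 and AKAP9, a kinase anchor of the KCNQ1 channel, one of -0.38 ± 0.14 (SD, n = 4, limma adjusted p = 0.0130 and 0.0178). ABCC8, a sulphonylurea receptor that surrounds the KCNJ11 pore, lay at -0.39, -0.52, -0.31 and -0.24. All 4 arrays were below 0, with a mean of -0.37 ± 0.12 (SD, n = 4, limma adjusted p = 0.0164) that stayed just short of the fold change required. The other tested partners were LRRC55, a second γ subunit (0.19 ± 0.14), and the scaffold proteins DLG1 (-0.17 ± 0.16) and AKAP5 (-0.18 ± 0.48). ABCC9, the sulphonylurea receptor usual in skeletal muscle and heart, was above background on no array.

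Other channels and pumps of the membrane changed in both directions. Of 47 listed genes 40 were on the array and 22 were tested, of which 2 rose, against 3.33% of all tested named genes, and 3 fell, against 5.37%. Their median log2 ratio was -0.10. The sodium channel β subunit SCN3B (-0.56 ± 0.26), the muscle protein ATP1B4 of the sodium pump β family (-0.72 ± 0.33) and ANO5, a muscle membrane protein of the anoctamin family (-0.71 ± 0.16), fell, with limma adjusted p-values of 0.0167, 0.0139 and 0.00434. FXYD5, a regulator of the sodium pump (0.47 ± 0.22), and the cation channel TRPV2 (0.40 ± 0.17) rose, with limma adjusted p-values of 0.0196 and 0.0203. The pump that restores the potassium gradient was measured through its β subunits ATP1B1 (-0.28 ± 0.20) and ATP1B3 (-0.32 ± 0.049), neither of them past both thresholds.

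**Figure D5:**
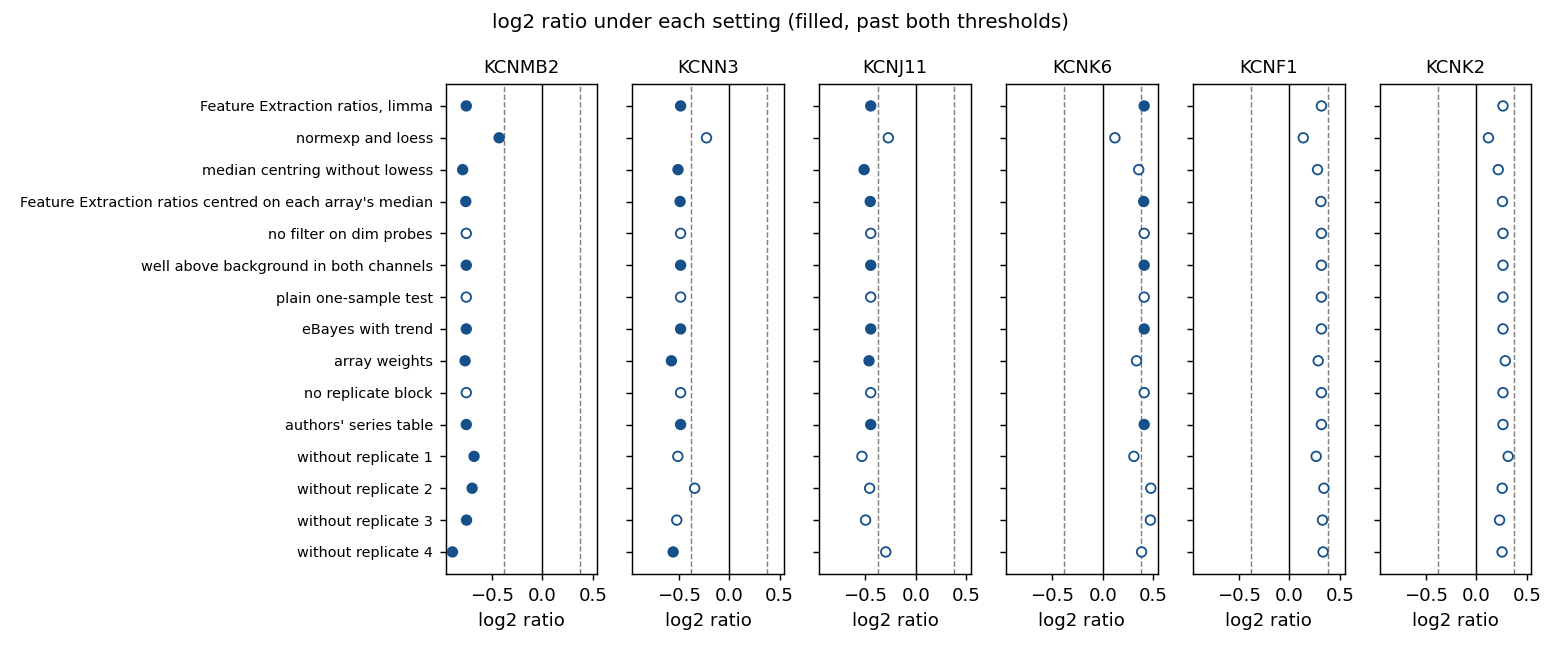
log2 ratio (GO over control) for 6 genes under the main setting and each alternative that could be applied to all of them, with filled symbols past both thresholds and dashed lines at a fold change of 1.3. KCNMB2 was past both thresholds without each of the 4 arrays, KCNN3 only without array 4, and KCNJ11 and KCNK6 in none of these fits.

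The alternatives separated KCNMB2 from the other 3 changed genes. Under background correction by normexp with loess, only KCNMB2 passed both thresholds, at a log2 ratio of -0.43, whereas KCNN3 was at -0.22, KCNJ11 at -0.27 and KCNK6 at 0.12. With medians centred and no lowess, the 3 genes that fell passed and KCNK6 did not. KCNMB2 itself was lost in 3 settings, without the filter on dim probes (adjusted p = 0.0764), by the plain one-sample test (0.106) and without the pairing of channels within an array (0.124).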

How the data were processed

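Total RNA of GO-treated and control cells was hybridised to 4 two-colour 60-base oligonucleotide arrays, each called a biological replicate in the labels, with no horse or culture given. Per the file headers, the authors extracted the spots with Agilent Feature Extraction 10.10.1.1, with background subtraction and linear and lowess dye normalization, and the deposited files give processed intensity per channel and the log10 ratio of red (GO) over green (control). The series table held the same log10 ratios as deposited, equal within 1e-09 for 180880 of 180880 values. Dye signals below the error were replaced by surrogates by that software, and a ratio of 2 surrogates is listed at 0. Coordinates are those of the files, on EquCab1.

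Here the deposited log10 ratios were converted to log2, control and outlier spots were left out, and spots of a probe were averaged. A probe was tested if it was well above background in 1 channel on all 4 arrays (26832 of 43603 probes). limma 3.58.1 in R 4.3.3 tested the mean ratio against 0, two-sided, with Benjamini-Hochberg adjustment over all tested probes, and a probe counted as changed where the adjusted p did not exceed 0.05 and the change reached 1.3-fold, the thresholds of the study's methods, which name no test. The prior SD was 0.144 with 3.6 degrees of freedom beside 3 residual ones. A bound compares the brighter channel's mean with the lowest signal well above background. Symbols were taken from the files, and 67 of 67 were in the RefSeq table used for names. Of its 94 symbols of this form 27 had no member, and 6 probes named in the files only by a transcript were left out, of which the table assigns 4 to KCNIP1 and 2 to KCND2.

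The members and lists were chosen with earlier results of these data known. Named in the text were members past both thresholds, KCNMB2 and KCNK12, the 8 largest rises and falls among tested members, members known from muscle or the other cells of the culture, members above background in 1 channel only, and genes whose probes disagree. On simulated data for the comparison of GO with control cells over 26832 probes, 43% of 200 probes changed by 0.5 in log2 were recovered, 96.5% of those changed by 1 and 100% of those changed by 2. Alternatives were another background correction and normalization, other filters, other tests, leaving out each array, other probes of a gene and the series table. The channels of an array were paired: deviations of the control and GO channels from their means correlated at 0.485 to 0.862 within an array and at -0.541 to 0.232 between arrays. Ratios of different arrays correlated at 0.445 to 0.683 over probes. The number of arrays limits the precision. No per-sample column was left without a sample. Some members of the lists are counted but not reported here by name.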

Additional observations from a re-analysis of the deposited data

Results flagged for a closer look

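In 1 of 20 tested members an array stood apart from the other 3. KCNK7 had a log2 ratio of -0.332366 on array 3, and 0.027, -0.025 and 0.012 on arrays 1, 2 and 4. The gap to the next array was 0.855 of the whole range, above Dixon's critical value for 4 samples. Chance flags about 1 in 20 such groups. KCNK7 was not past the thresholds with or without that array.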

How the results depend on the processing

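The 4 changed members became 1 under normexp with loess (KCNMB2), 1 without the filter on dim probes (KCNC1, of 67 tested), 0 by the plain one-sample test, 0 without the replicate block and 1 of 3 with the second brightest tested probe (KCNMB2). Leaving out 1 array gave 1 to 2. At an unadjusted p under 0.05 there were 8 members by limma, 5 by the plain test and 2 without the block. Array weights left 3 (without KCNK6). Under median centring without lowess 3 members fell and none rose, and of all changed probes 51.3% rose in place of 37.3%. The median of all tested named genes stayed between -0.010 and 0.015 under each scaling.

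The replicate block is the pairing of both channels on an array, and the fit without it used signals that were not scaled between arrays. The 2399 changed probes became 370 without the block, 1297 under normexp, 908 without the filter, 147 by the plain test and 1566 to 2430 without 1 array (1566 without array 2). Partner genes went from 4 to 1 without the block, under normexp, by the plain test and with the second brightest probe, and to 2 to 4 without 1 array. Of the 5 other membrane genes, 1 was left without the block, 2 under normexp, 1 without the filter, 0 by the plain test, 2 with the second brightest probe and 2 to 5 without 1 array. The members' median of -0.058 moved to -0.016 under normexp, -0.13 under median centring, -0.031 without the filter and -0.064 to 0.0045 without 1 array.

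Members near 0 changed sign. Under normexp KCNE3 went to 0.067, KCNH2 to -0.013, KCNJ13 to 0.022 and KCNK5 to 0.064. KCNH2 was at -0.072 under median centring and KCNK5 at 0.000801 with array weights. As the mean of its probes KCNB2 was at -0.021 and KCNE3 at 0.047, and with its second probe KCNE3 was at 0.13. Leaving out 1 array gave -0.11 to 0.019 for KCNE3, -0.14 to 0.010 for KCNG1, -0.053 to 0.076 for KCNH2, -0.049 to 0.030 for KCNJ13, -0.11 to 0.015 for KCNK1, -0.27 to 0.077 for KCNK5, -0.12 to 0.0043 for KCNK7, -0.048 to 0.39 for KCNMB1 and -0.18 to 0.031 for KCNQ3. The cause of these changes was not tested.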
